A study of Mus musculus with 8 samples.

Results

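The desmosome, claudin and gap junction genes are the genes for the proteins that hold epidermal cells together, seal the space between them and connect their cytoplasm. They were followed in mouse skin after local treatment with enalapril, an inhibitor of the enzyme that makes angiotensin II. Members were chosen by name alone: every gene whose name on the array was a desmoglein (Dsg), desmocollin (Dsc), plakophilin (Pkp), plakoglobin (Jup), desmoplakin (Dsp), claudin (Cldn), occludin (Ocln), zonula occludens protein (Tjp) or connexin (Gja to Gje). This gave 58 genes with 85 probes, out of 27740 genes on the array, a count in which probes with no gene name stand one by one. There were 15 desmosomal genes, 25 tight junction genes and 18 connexin genes. One probe stood for each gene, the brightest on average over all arrays.

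The 8 samples came from the backs of hairless mice, SKH-1 males about 6 weeks old at the start and 19 weeks old at sampling. All mice had been exposed to UVB on the back for 10 weeks, and from 1 week later the whole back received 100 microlitres of liquid 5 times a week over 2 weeks. In 4 mice this was a 1% w/v solution of enalapril maleate made up in 30 vol % ethanol, and in the other 4, the vehicle group, 30 vol % ethanol alone. No group without UVB or without ethanol was analysed here, so every difference is between irradiated, ethanol-treated skins. The labels call the samples of a group biological replicates, and each was hybridised to its own Cy3 array.

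Desmosomes are button-like contacts in which desmogleins and desmocollins, both cadherins, reach across the gap between cells, and plakoglobin, the plakophilins and desmoplakin tie them to keratin filaments. Tight junctions, which in epidermis seal the granular layer, are strands of claudins and occludin held by the zonula occludens scaffold proteins. Gap junctions are channels made of connexins, through which ions and small molecules pass from cell to cell. Keratinocytes carry all of these structures, and vessels, nerves and hair follicles in skin carry their own claudins and connexins.

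Levels below are log2 intensities relative to the 75th percentile of their own array, so a level of 0 is at that percentile, and they compare one probe between arrays, never one gene with another. The share of spots well above background was 67.1% to 72.7%, by array. Slide 1 carried the 4 vehicle arrays and slide 2 the 4 enalapril arrays, each slide in its own scan, so an effect of the slide and one of the treatment cannot be told apart. Enalapril 4 lay further from its group than any other array did, with a mean distance of 85.7 against 55.3 to 71.0 for the others, in log2 units over all genes tested. In whole skin, fewer cells of a type and less RNA per cell cannot be told apart.

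The labelled tissue was checked with lists of marker genes: all 7 basal keratinocyte markers and all 8 suprabasal and granular keratinocyte markers were well above background and tested. None of these 15 passed the test between the groups (limma, adjusted p), and at an unadjusted p under 0.05 there was 1, a basal marker that was higher. The summed level of the basal list ranged from 8.999 to 9.53 in vehicle and from 9.18 to 9.46 in enalapril. That of the suprabasal list ranged from 9.28 to 10.2 in vehicle and from 9.41 to 9.66 in enalapril, so both ranges overlapped. Markers of deeper tissue did move: 5 of 11 skeletal muscle markers and 5 of 8 adipocyte markers were lower in enalapril, with median log2 changes of -0.67 and -0.51. Of all genes tested 9.85% were lower. Of the 11 hair follicle markers tested 1 was lower, with a median of -0.39. Their summed level was 5.56 to 6.62 in vehicle and 5.51 to 6.17 in enalapril. None of the 4 melanocyte markers passed, with a median of -0.43. Their summed level was 3.38 to 4.15 in vehicle and 3.09 to 3.30 in enalapril, without overlap. The part of these tissues and cells in the changes of the junction genes was not tested.

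Of the 58 genes, 46 had a signal well above background on 4 or more of the 8 arrays and were tested. With enalapril 5 of them rose and 3 fell, at an adjusted p under 0.05 (limma, Benjamini-Hochberg over all 19097 genes tested). Claudins gave most of the rises, namely Cldn14, Cldn4 and Cldn1, and the plakophilin gene Pkp4 rose as well. Those that fell were the claudin gene Cldn22 and the connexin genes Gjb5 and Gjd3. These 8 genes were 17.4% of the members tested, against 14.2% of all genes tested, so the share was near the background. Over all genes 4.33% were higher and 9.85% lower, so falls outnumbered rises there, while among the members 5 rises stood against 3 falls. Most members moved little: 38 of the 46 changed by no more than 0.5 log2, and the median size of a change was 0.23 log2 among members and 0.24 among all genes.

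The median log2 change was 0.13 for the 14 desmosomal genes tested, -0.10 for the 19 tight junction genes and -0.11 for the 13 connexins, beside -0.08 for all genes tested, and the differences between classes were not tested. In the desmosomal class 1 gene rose and none fell, with no further fall at an unadjusted p under 0.05. In the tight junction class 4 rose and 1 fell, while at an unadjusted p under 0.05 there were 4 higher and 4 lower. Among connexins none rose, also at an unadjusted p under 0.05, and 2 fell, with 4 lower at that unadjusted p. These medians moved with the processing. With the uncentred values of the series matrix they were -0.23, -0.47 and -0.47, beside -0.45 for all genes. With normexp background correction, without the repair described below, they were 0.17, 0.29 and 0.03, beside 0.14 for all genes. The order of the classes changed there, with the tight junction median the highest. That setting called no gene of all tested, a result that hung on 6 spots, as given below.

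**Figure D1:**
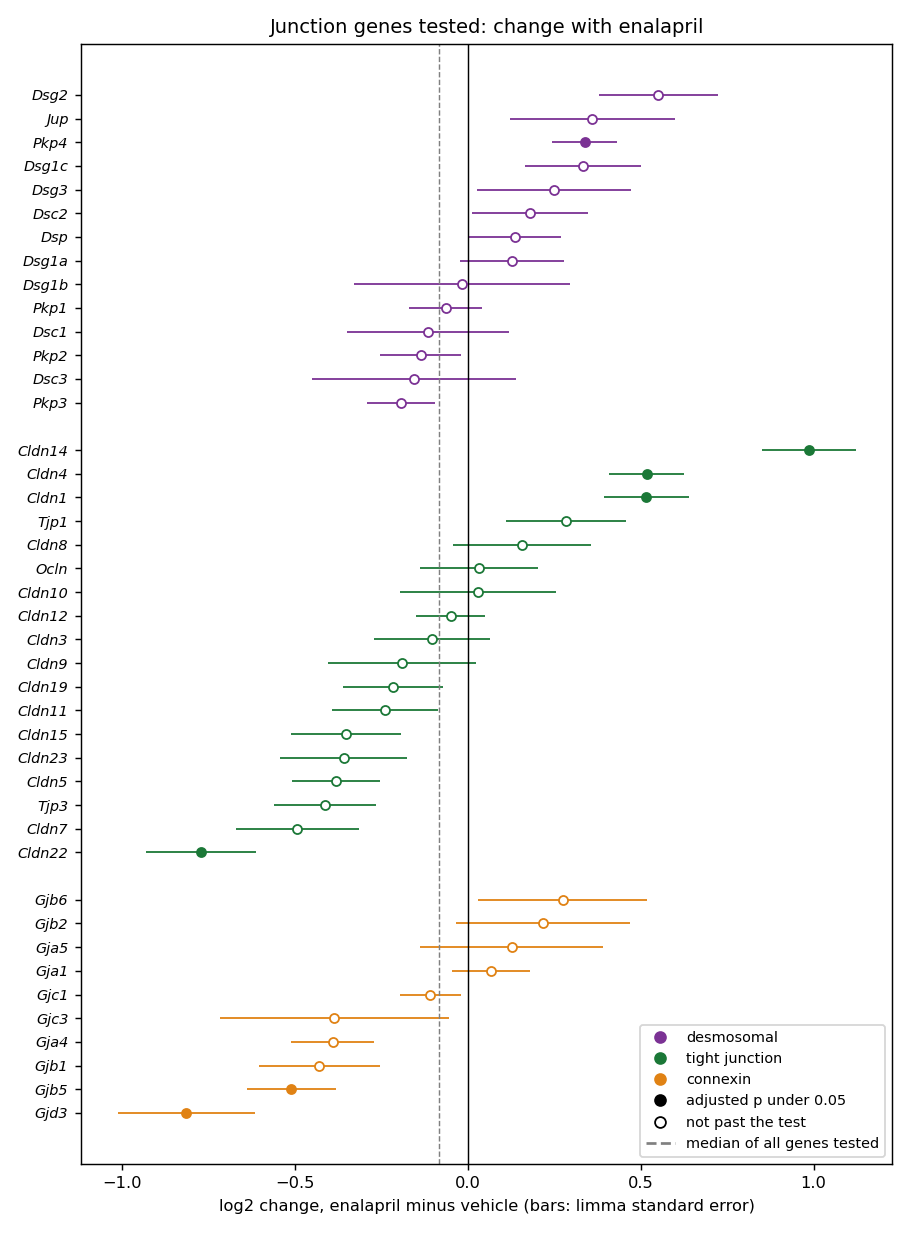
Log2 change of 42 of the 46 tested members (enalapril minus vehicle, 4 arrays per group) with limma's standard error, by class. Filled points passed the test, and the dashed line is the median of all genes tested, -0.08. Most points lie within 0.5 of 0, the furthest right is Cldn14 at 0.99, and the furthest left are Gjd3 at -0.81 and Cldn22 at -0.77.

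Promoter sequences of 3 genes that passed the test are shown because these genes encode a claudin pair of the epidermis, both higher, and a skin connexin that was lower. They are the 250 bases before the annotated start, 5′ to 3′ on the gene's own strand, from RefSeq on GRCm38.p6; the array files name no build. Capitals mark matches to any of 6 motifs searched on both strands, given in the next paragraph.
Cldn4, chr5:134946935-134947184, minus strand: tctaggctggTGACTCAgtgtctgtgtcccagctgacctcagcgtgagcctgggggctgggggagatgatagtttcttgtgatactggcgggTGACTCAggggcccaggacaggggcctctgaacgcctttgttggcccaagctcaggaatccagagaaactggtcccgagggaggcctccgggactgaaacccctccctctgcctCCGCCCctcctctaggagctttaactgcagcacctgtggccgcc
Cldn1, chr16:26371840-26372089, minus strand: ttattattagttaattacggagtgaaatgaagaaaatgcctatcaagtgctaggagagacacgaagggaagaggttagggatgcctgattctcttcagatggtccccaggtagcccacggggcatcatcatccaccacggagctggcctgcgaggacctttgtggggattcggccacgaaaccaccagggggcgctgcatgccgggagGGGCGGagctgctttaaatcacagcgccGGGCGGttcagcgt
Gjb5, chr4:127358165-127358414, minus strand: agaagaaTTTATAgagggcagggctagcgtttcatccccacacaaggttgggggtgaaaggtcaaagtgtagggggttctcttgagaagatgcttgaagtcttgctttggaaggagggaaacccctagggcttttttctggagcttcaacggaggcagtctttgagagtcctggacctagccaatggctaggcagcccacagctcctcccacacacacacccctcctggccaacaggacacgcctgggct

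Counted back from the start site, the Cldn4 stretch held the AP-1 motif TGANTCA at -240 to -234 and again at -158 to -152, and the GC box GGGCGG, on the other strand, at -44 to -39. The Cldn1 stretch held the GC box at -42 to -37 and at -14 to -9. The Gjb5 stretch held the letters of the TATA box, TATAAA, only on the other strand and far from the start, at -243 to -238. The other motifs searched, AACCNGTT (bound by grainyhead-like factors), the E-box CACGTG and the D-box TTANGTAA, were in none of the 3 stretches. The 6 motifs do not overlap in these stretches.

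Over the 50 promoters of 35 members that the table holds outside the desmosomal cadherin cluster, 6.0% carried the AP-1 motif, beside 6.75% of all 32851 promoters of the same length. The GC box was in 46.0% of member promoters and 32.7% of all. Genes with several starts count more than once, and overlapping stretches of Cldn12 and of Cldn19 hold the same GC boxes. AACCNGTT was in 4.0% of member promoters and 1.79% of all, CACGTG in 2.0% and 6.02%, TTANGTAA in 4.0% and 2.06%, and TATAAA in 10.0% and 12.4%. A match only says that the letters are there. Of the 8 genes that passed the test 6 had an entry.

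Among the tight junction genes, Cldn14 changed most. It encodes a claudin known for sealing the hearing organ and for a role in the kidney. Its vehicle levels were -4.96, -4.80, -5.26 and -5.05 and its enalapril levels -4.25, -4.10, -3.98 and -3.80. Every enalapril array lay above every vehicle array, by at least 0.55. The log2 change was 0.99 ± 0.14 (SE, n = 4 per group), a 1.98-fold rise with an adjusted p of 0.00889 (limma). The probe was dim, with processed intensities of 26.7 to 62.8 across the arrays, although it was well above background on all of them. Its call held in all 8 fits that each left out 1 array, at adjusted p up to 0.0310.

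Cldn4 encodes a claudin of the granular layer that restricts ion flow. Its levels were -0.07, -0.35, -0.36 and -0.09 in vehicle and 0.17, 0.34, 0.39 and 0.30 in enalapril, and the groups did not overlap. It rose by 0.52 ± 0.11 log2, or 1.43-fold (limma, adjusted p = 0.0226). The call was lost without vehicle 2, enalapril 2 or enalapril 3, where the adjusted p reached 0.0638. Cldn3, its neighbour on chromosome 5 and a close relative, had a change of -0.10 (adjusted p = 0.703). The changes of these neighbours differed by 0.62 log2, with an exact permutation p of 0.0857 (two-sided, 70 splits; 0.236 after adjustment over 11 neighbouring member pairs). The smallest p that 70 splits allow is 0.0286, so a single pair could not pass after that adjustment, and the values leave it undecided whether the 2 genes changed differently.

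Cldn1, the claudin without which mouse epidermis loses its water barrier, had vehicle levels of 0.0048, 0.32, 0.30 and 0.48 and enalapril levels of 0.90, 0.84, 0.62 and 0.80. Vehicle 1 was the lowest array, and all enalapril arrays lay above all vehicle arrays. It rose by 0.52 ± 0.12 log2, or 1.43-fold (limma, adjusted p = 0.0301). A second Cldn1 probe of nearly the same brightness had a change of -0.20 with an adjusted p of 0.252 over all probes tested, and its groups overlapped. The rise was therefore that of 1 of the 2 probes. The call also held only without vehicle 4 or without enalapril 4, and was lost without any of the other 6 arrays, at adjusted p up to 0.0799.

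Cldn22 was the tight junction gene that fell. It is a little-studied claudin, and its probe was named through its symbol only. Its levels were -2.94, -2.97, -2.99 and -2.65 in vehicle and -3.997, -3.76, -3.60 and -3.29 in enalapril. Vehicle 4 stood above the other 3 vehicle arrays, and no enalapril array reached the vehicle range. It fell by 0.77 ± 0.16 log2, or 1.71-fold (limma, adjusted p = 0.0213). The reference names share a synonym between Cldn22 and its neighbour Wwc2, so which of these transcripts the probe reads is uncertain. The call was lost without vehicle 1, 2 or 4 or enalapril 2 or 3, at adjusted p up to 0.0602.

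**Figure D2:**
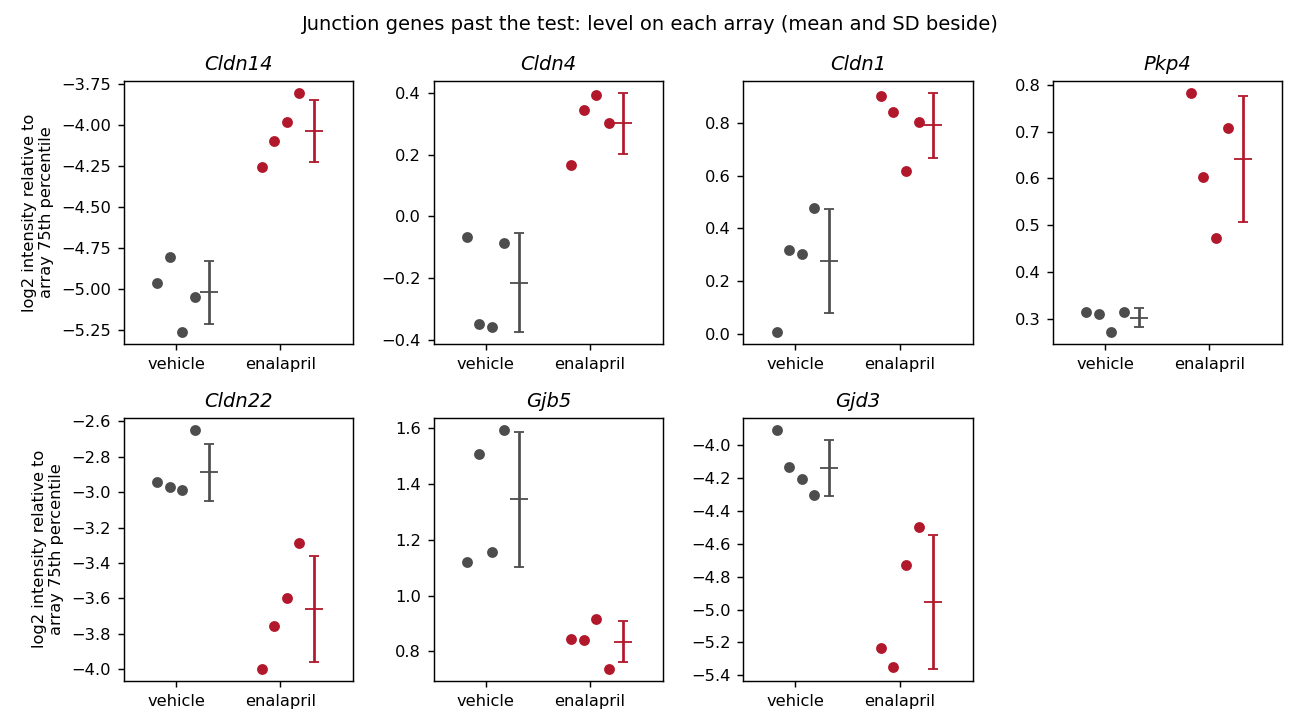
Level on each array, in log2 intensity relative to the array's 75th percentile, of 7 of the 8 members that passed the test, with vehicle in grey and enalapril in red and the mean and SD of 4 arrays beside the points. Each panel has its own axis. In every panel the groups do not overlap, and the narrowest gaps are those of Cldn1 and Pkp4, at 0.14 and 0.16.

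The other tight junction genes did not pass. Cldn5, the main claudin of blood vessel walls, had levels of 1.65, 1.74, 1.60 and 1.51 in vehicle and 1.25, 1.19, 0.99 and 1.54 in enalapril. Enalapril 4 alone reached the vehicle range. The change was -0.38 ± 0.13 log2 with an adjusted p of 0.0796 (limma), and -0.48 with an adjusted p of 0.0157 without enalapril 4. Of the 9 endothelial markers none passed and 2 were lower at an unadjusted p under 0.05, with a median change of 0.03. Their summed level was 4.12 to 4.35 in vehicle and 4.07, 3.97, 3.93 and 4.43 on enalapril 1 to 4. Enalapril 4 lay above every vehicle array, and the other enalapril arrays lay below every vehicle array. The part of vessels in the Cldn5 values was not tested.

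Tjp3, which encodes the scaffold ZO-3, changed by -0.41 ± 0.15 log2 (limma, adjusted p = 0.0962) and the epithelial claudin Cldn7 by -0.49 ± 0.18 (adjusted p = 0.0972), with overlapping groups in both. Occludin, the strand protein for which tight junctions are often stained, had vehicle levels of -1.51, -0.99, -1.78 and -1.10 and enalapril levels of -1.35, -1.33, -1.30 and -1.27. The enalapril arrays lay within the vehicle range, and their SD was 0.03 against 0.37 in vehicle. Its change was 0.03 log2, with a 95% interval from -0.36 to 0.42, so a change of either sign within it remains possible. Tjp1, the gene of ZO-1, had a change of 0.28 (adjusted p = 0.295) while its dimmer probe had -0.52 (adjusted p = 0.108 over all probes). Further tested claudins that did not pass ranged from Cldn23 at -0.36 and Cldn15 at -0.35 to Cldn8 at 0.16.

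Among the desmosomal genes only Pkp4 passed. It encodes a relative of the plakophilins that is also found at adherens junctions. Its vehicle levels lay close together at 0.32, 0.31, 0.27 and 0.32, and its enalapril levels were 0.78, 0.60, 0.47 and 0.71. All enalapril arrays lay above all vehicle arrays. It rose by 0.34 ± 0.09 log2, or 1.26-fold (limma, adjusted p = 0.0474). A second, dimmer probe had a change of 0.82 with an adjusted p of 0.0632 over all probes, and by that same adjustment the chosen probe had 0.0612. Only the fit without enalapril 4 kept the call among the 8 that left out 1 array, with adjusted p up to 0.118 elsewhere.

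The core plaque genes did not pass. Desmoplakin, the link from plaque to keratin, had levels of 4.92, 5.27, 4.93 and 5.40 in vehicle and 5.20, 5.17, 5.38 and 5.32 in enalapril, all within the vehicle range. Its change was 0.14 log2, with a 95% interval from -0.17 to 0.44 (limma, adjusted p = 0.516), and its 3 further probes had changes between -0.03 and 0.20. Plakoglobin (Jup), shared by desmosomes and adherens junctions, had a change of 0.36 ± 0.24 (adjusted p = 0.330), its level of 2.49 on enalapril 3 being the highest. Pkp1, the main plakophilin of upper epidermis, ranged from 6.30 to 6.61 in vehicle and from 6.30 to 6.56 in enalapril, a change of -0.06 with an interval from -0.30 to 0.17. Pkp2 and Pkp3 had changes of -0.14 (adjusted p = 0.451) and -0.19 (adjusted p = 0.213).

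The desmosomal cadherins lie in 1 cluster on chromosome 18, and 8 of the 9 were tested. Dsg2, a desmoglein of simple epithelia and basal cells, had levels of -2.11, -1.74, -2.10 and -2.09 in vehicle and -1.11, -1.33, -1.53 and -1.87 in enalapril. Vehicle 2 stood above its group and within the enalapril range, and enalapril 4 was the lowest of its own. The change was 0.55 ± 0.17 log2 (limma, adjusted p = 0.0650), and 0.69 with an adjusted p of 0.0137 without enalapril 4. The 3 other tested Dsg2 probes had changes of 0.12, -0.0058 and 0.33, none of them past the test.

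Dsc2, a desmocollin found in most epithelia, had levels of -1.81, -1.36, -1.63 and -1.59 in vehicle and -1.33, -1.24, -1.22 and -1.88 in enalapril. Enalapril 4 lay below every vehicle array while the other 3 lay above them, and the change was 0.18 ± 0.17 (limma, adjusted p = 0.497). Its dimmer probes gave another picture, with changes of 0.45 and 0.69, adjusted p of 0.0473 and 0.0175 over all probes, and no overlap between the groups in either. Dsg3, the pemphigus antigen of basal keratinocytes, had a change of 0.25 ± 0.22 (adjusted p = 0.471). Dsg1a, a mouse copy of the desmoglein of upper epidermis, had 0.13 (adjusted p = 0.592) and Dsg1c 0.33 (adjusted p = 0.208). The Dsg1a, Dsg1b and Dsg1c genes are closely related copies, so their probes may read one another. Dsc1, the desmocollin of the upper layers, had -0.12 with an interval from -0.65 to 0.42, and Dsc3, that of the lower layers, had -0.16 with an interval from -0.83 to 0.51.

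These cadherins shared an order of arrays, which was noticed after their values were seen. Enalapril 4 was the lowest enalapril array for 7 of the 8, Dsg1c being the exception, while it was lowest for 24.0% of all genes tested and highest for 46.8%. Vehicle 2 was the highest vehicle array for 7 of the 8, Dsg3 being the exception, beside 24.2% of all genes. The summed basal keratinocyte level on enalapril 4, 9.25, was not the lowest of its group, and the vehicle 2 value of 8.999 was the lowest of its group. The summed fibroblast level was also lowest on vehicle 2 in its group, at 9.35, and the part of array scale in these sums was not tested. The cadherin genes are neighbours and some may share signal, so the counts of array order are not independent.

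Among the connexins Gjb5 and Gjd3 passed, both lower. Gjb5, which encodes connexin 31.1 of the epidermis, had levels of 1.12, 1.51, 1.16 and 1.59 in vehicle and 0.84, 0.84, 0.92 and 0.74 in enalapril. Vehicle 2 and 4 lay highest, and the enalapril arrays formed a tight group below all vehicle arrays. It fell by 0.51 ± 0.13 log2, or 1.42-fold (limma, adjusted p = 0.0360). The call stood without vehicle 3 or without enalapril 4, and was lost without any of the other 6 arrays, at adjusted p up to 0.0934.

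Gjd3 encodes a connexin described in the conduction tissue of the mouse heart, and was listed as Gjc1 on the array. Its levels were -3.91, -4.14, -4.21 and -4.31 in vehicle and -5.24, -5.35, -4.73 and -4.50 in enalapril. Enalapril 1 and 2 were the lowest and enalapril 4 came nearest to the vehicle group, without overlap. It fell by 0.81 ± 0.20 log2, or 1.76-fold (limma, adjusted p = 0.0319). The probe was dim, between 21.6 and 87.5 intensity units, and was well above background on all 8 arrays. The part of the local background, which was lower on the enalapril arrays, was not tested. Without enalapril 4 the adjusted p was 0.0086, and in the other 7 fits that left out 1 array the call was lost, at adjusted p up to 0.0847.

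Gja4, which encodes connexin 37 of arteries, had levels of 0.51, 0.49, 0.73 and 0.38 in vehicle and 0.18, -0.02, 0.03 and 0.35 in enalapril. Its groups did not overlap, although the gap between vehicle 4 and enalapril 4 was narrow. The change was -0.39 ± 0.12 log2 and did not pass (limma, adjusted p = 0.0618). In all, 9 members had groups that did not overlap, 19.6% of those tested, against a background of 22.0%: 5 with enalapril above (background 6.60%) and 4 with enalapril below (background 15.4%).

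The best-known skin connexins did not pass. Gja1, the widely expressed connexin 43, ranged from 1.72 to 2.11 in vehicle and from 1.97 to 2.03 in enalapril. The change was 0.07 ± 0.11 log2 with a 95% interval from -0.19 to 0.32 (limma, adjusted p = 0.716). Gjb2 and Gjb6, the connexins 26 and 30 of deafness and skin disease, lie side by side on chromosome 14 and had changes of 0.22 ± 0.25 (adjusted p = 0.587) and 0.27 ± 0.24 (adjusted p = 0.471). For both genes vehicle 3 was the highest and vehicle 4 the lowest of all arrays, at 3.89 and 2.68 for Gjb2 and at 2.53 and 1.40 for Gjb6. The spread in vehicle, an SD of 0.51 for Gjb2, was wider than either change.

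Other connexins with values were Gjb1 at -0.43 (limma, adjusted p = 0.131), the connexin of liver and myelinating Schwann cells, Gjc1 at -0.11 (adjusted p = 0.429) and Gjc3, a connexin of glia, at -0.39 (adjusted p = 0.453), the last well above background on only 2 arrays of each group. The 8 Schwann cell markers had a median change of -0.09 and none passed, with 1 lower at an unadjusted p under 0.05. Their summed level was 4.72 to 4.94 in vehicle and 4.35 to 4.68 in enalapril, so those ranges did not overlap. The part of nerves in the connexin values was not tested. Gja5, the connexin 40 of large vessels, gave different answers by probe. The chosen probe had a change of 0.13 ± 0.26 (adjusted p = 0.779), while a dimmer probe had -0.68, with an adjusted p of 0.0450 over all probes and no overlap between the groups. A still dimmer probe was well above background on all 4 vehicle arrays but on 1 enalapril array, and it is lower in enalapril by a size that the background leaves uncertain.

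Several members thus depended on which probe was read. Of the 14 members with more than 1 tested probe, 7 had probes of one sign and 7 had probes of both signs. For some of the latter the opposite sign lay close to 0, as for Dsg2 at -0.0058 and Dsp at -0.03. No such count was made over all genes. The files do not give the probes' sequences or places in the transcript, so no probe could be ranked above another by position.

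**Figure D3:**
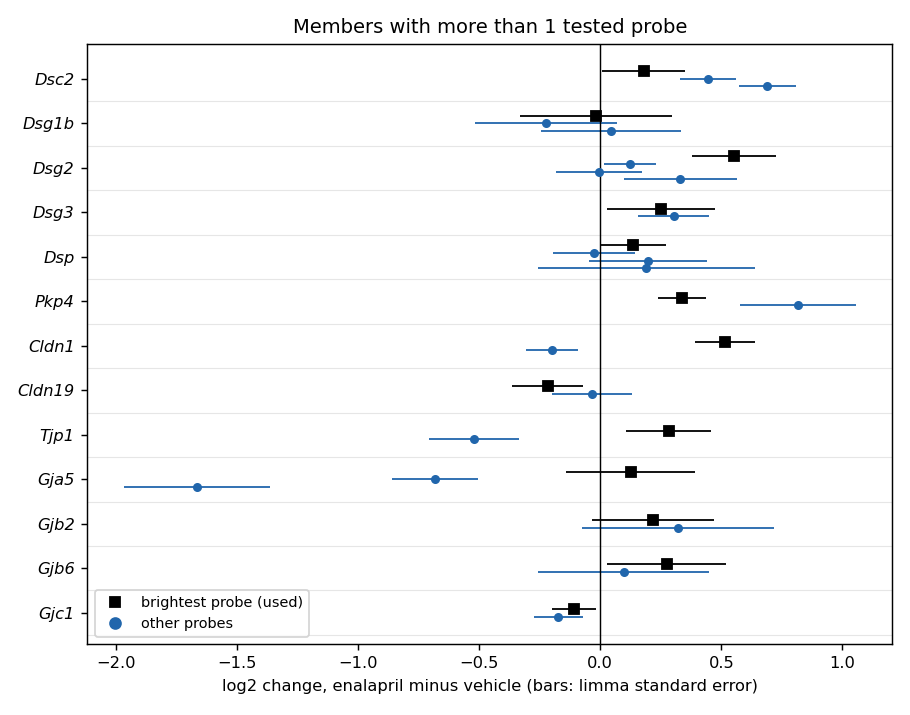
Log2 change (enalapril minus vehicle) with limma's standard error for every tested probe of 13 of the 14 members with more than 1. Black squares are the brightest probe, which stands for the gene, and blue circles are the others. Probes of Cldn1, Tjp1 and Gja5 fall on both sides of 0, and those of Dsc2 all lie above it.

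There were 12 members that were not tested. Dsg4, Cldn13, Cldn16, Cldn17, Gja6 and Gjd2 were among those not well above background on any array. Dsg4 is the desmoglein of the hair shaft. Gja3 and Gja10 were well above background on 3 and 2 arrays in all. Cldn18 was above background on 2 vehicle arrays and Cldn2 and Cldn6 on 1 each, with no enalapril array, and no fold is given for them because their lower bounds were under 1. For these 3 genes vehicle 1 was the brightest array, at -4.62, -3.13 and -3.62.

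The proteins that sit beside these junctions were read from lists of 57 partner genes, of which 55 were tested. With enalapril 4 rose and 1 fell, which is 9.09%, under the 14.2% of all genes. The median change was 0.07. Among those that rose was E-cadherin (Cdh1), the cadherin of epithelial adherens junctions, with levels of -0.14, 0.01, -0.04 and 0.30 in vehicle and 0.78, 0.67, 0.72 and 0.81 in enalapril. The groups did not overlap, and Cdh1 rose by 0.71 ± 0.11 log2 (limma, adjusted p = 0.0120), a call kept in all 8 fits that left out 1 array. Its partner p120-catenin (Ctnnd1) rose by 0.66 ± 0.17 (adjusted p = 0.0342), with dimmer probes at 0.31 and -0.25 that did not pass, and its call was lost in the fits without vehicle 1, 2 or 4 or enalapril 1, 2 or 3. The 14 adherens junction genes had a median change of 0.20, and those 2 were the ones called.

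Among the 22 tight junction partners tested, the scaffold gene Magi3 rose by 0.53 ± 0.09 log2 (limma, adjusted p = 0.0141) and Jam2, an adhesion molecule of vessels, fell by 0.62 ± 0.10 (adjusted p = 0.0118). Both calls held in all 8 fits that left out 1 array, and a further probe of each did not pass (adjusted p = 0.412 and 0.600 over all probes). The Jam2 levels were 0.59, 0.59, 0.74 and 0.80 in vehicle and 0.01, -0.02, 0.05 and 0.21 in enalapril, so every enalapril array lay below every vehicle array. The endothelial marker levels given beside Cldn5 apply here too, and the part of vessels was not tested.

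None of the 16 desmosome and cornified envelope partners passed (limma), and none had an unadjusted p under 0.05. The smallest p were those of involucrin (Ivl), an early envelope protein, at 0.85 ± 0.38 (adjusted p = 0.160), and envoplakin (Evpl), which links envelope and desmosome, at -0.28 ± 0.14 (adjusted p = 0.211). Of the gap junction partners, Panx3, a pannexin channel of skin and cartilage, rose by 0.77 ± 0.16 log2 (adjusted p = 0.0225). Its levels were -2.43, -2.55, -2.50 and -2.28 in vehicle and -1.84, -1.68, -1.94 and -1.20 in enalapril, and the groups did not overlap. The call was lost without vehicle 1, vehicle 2 or enalapril 2, at adjusted p up to 0.0628.

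**Figure D4:**
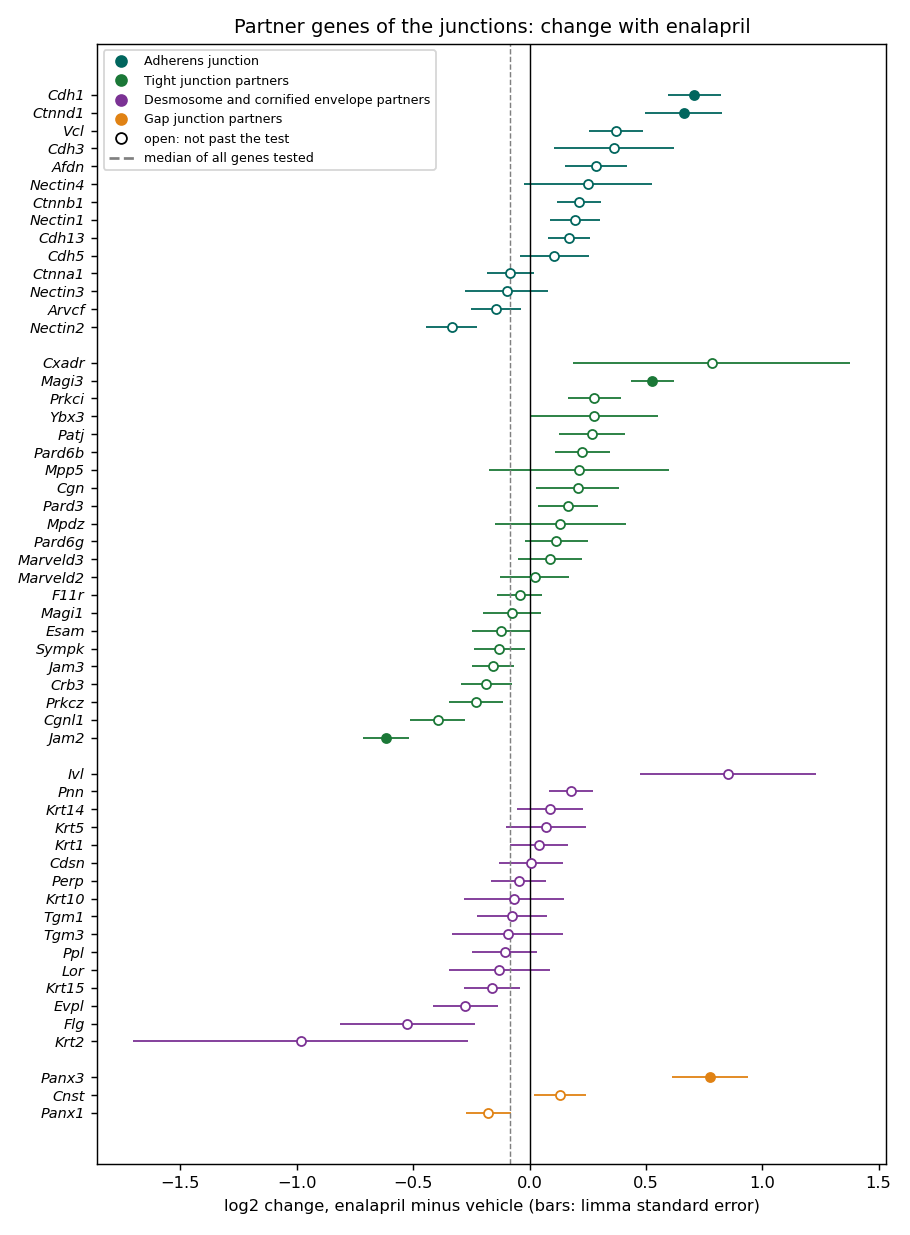
Log2 change (enalapril minus vehicle, 4 arrays per group) with limma's standard error of the 55 tested partner genes, by list. Filled points passed the test: Cdh1, Ctnnd1, Magi3 and Panx3 lie to the right and Jam2 to the left of the dashed median of all genes, -0.08.

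The number of members called moved with single arrays, and so did that of all genes. Without vehicle 1, 2, 3 or 4 the count was 2, 1, 4 and 3, and without enalapril 1, 2 or 3 it was 3, 1 and 1. In the same fits 4.47%, 4.83%, 10.4% and 5.81%, and 5.04%, 4.63% and 4.93%, of all genes passed. Without enalapril 4 it was 12, or 26.1% of the members tested, when 26.3% of all genes passed. Dsg2, Cldn5, Cldn15 and Gja4 were the additions in that fit. Cldn14 was the only member called in all 8 of these fits.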

How the data were processed

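Members, lists and tests were chosen with earlier results of these data known. The authors deposited Agilent Feature Extraction output (version 9.1.3.1 per the file headers, 9.1 per the submitters' processing notes), in which intensity is linear and, per the file headers, background-subtracted and detrended but not scaled between arrays. Its deposited flags for outliers and for signal well above background are values of another kind and served as filters. The deposited series matrix was, on comparison, the uncentred log2 of the same intensity.

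Outlier-flagged spots were dropped, spots of a probe averaged, and log2 intensities centred on the array's 75th percentile. Probes were named through RefSeq (GRCm38.p6) by accession (22951), symbol (6659) or synonym (3096); 2024 kept the file's name and 6444 had none. Gjc1, Gjc3, Gjd2 and Gjd3 stood under older names, and probes now named Gjd4 and Gje1 and a clone-named Dsc1 probe fell outside the rule. Genes were tested by limma (3.58.1, under R 4.3.3, files being read by data.table, release 1.17.8) with group as the only term, two-sided, on genes well above background on 4 or more of 8 arrays; errors are limma's standard errors. The number of arrays limits precision: in data simulated for this comparison over 19097 genes, 16% of changes of 0.5 log2 and 76% of changes of 1 were called. Only 139 genes were called in the simulated data, against 2707 in the real data. The adjustment was therefore stricter there, and these shares may be too low for the real data.

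Named by rule were members past the test, the 6 of smallest p per class, well-known members whatever their value, and partners past the test or the 2 of smallest p. Other members, probes, neighbouring pairs, motifs and array orders were chosen after values were seen. A summed level is the log2 of a list's summed linear levels. Some members are counted but not reported here one by one. Alternatives covered background, scaling, filter, probe choice, variance model, weights, replicate block and single arrays; slide and scan could not be fitted as blocks, since each held 1 group.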

Additional observations from a re-analysis of the deposited data

Results flagged for a closer look

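Chance alone sets about 1 in 20 groups of 4 arrays apart in this way; here 7 of 84 groups had a highest or lowest array far from the other 3, relative to the group's whole range. Below their group were Gja5 on vehicle 1 at -2.59 (others -1.72 to -1.62) and Dsc2 on enalapril 4 at -1.88 (others -1.33 to -1.22). Pkp4 on vehicle 3 was also low, at 0.27 with the others at 0.31 to 0.32, a small distance in a narrow group. Those above their group were all vehicle arrays: Dsg2 on vehicle 2 at -1.74 (others -2.11 to -2.09), Cldn7 on vehicle 2 at -2.15 (others -2.79 to -2.70), Dsg3 on vehicle 3 at -1.68 (others -2.40 to -2.30) and Cldn22 on vehicle 4 at -2.65 (others -2.99 to -2.94).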

How the results depend on the processing

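As reported, 5 members were higher and 3 lower, and 4 partner genes higher and 1 lower. Members higher and lower numbered 0 and 0 with normexp, 1 and 0 with E1A control centring, 0 and 2 with the series matrix, 2 and 1 with no filter on dim probes, and 1 and 1 with the replicate block. They were 5 and 1 with repaired normexp or quantile normalization, so that 83.3% of the called were higher against 62.5% as reported, 3 and 3 with median centring or every probe tested, 3 and 4 with probes averaged per gene, and 6 and 7 with array weights. The share of all genes called moved too: 0% with normexp, 2.00% with E1A centring, 10.4% with the series matrix, 5.39% with no filter, 3.19% with the block, 9.61% with repaired normexp, 9.98% with quantile normalization, 10.1% with median centring, 11.6% with every probe or probes averaged, and 31.1% with array weights. Partners higher and lower were 0 and 0 with normexp or E1A centring, 0 and 2 with the series matrix, and 8 and 3 with array weights; the block left 2 higher, the filter on all 8 arrays or an intensity trend gave 2 lower, and the mean of probes 0 lower. With 1 array left out, members ranged from 1 to 6 higher and 0 to 6 lower, partners from 2 to 9 higher and 1 to 3 lower. Normexp called no gene of all tested, and it turned Cldn22 to 0.32 and Gjd3 to 0.37. Repaired normexp differed from it only in 6 spots, whose outlying local background was replaced by the median of their array. With that repair 582 of all genes were called higher and 1254 lower, so the empty result of normexp hung on those 6 spots. The series matrix turned Pkp4 to -0.027, with a median of all genes of -0.45. Over all genes 826 were higher and 1881 lower as reported, and 234 and 376 with the block. The cause of the shifts in the other settings was not tested.

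Cldn14 was called in 19 of 21 alternatives, all except normexp without the repair and the series matrix. Replicate numbers are also the position on the slide. Deviations from the group mean had correlations of -0.16, 0.05, 0.15 and -0.02 between vehicle and enalapril arrays of the same number. Between those of different numbers the correlations ran from -0.13 to 0.22. The block shares a number and a slide position. Centring, dim probes and 4 arrays per group limit these values.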

Other observations

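The vehicle arrays followed an order of their own in many junction genes, which was noticed after the values were seen. Vehicle 2 and vehicle 4 were both above vehicle 1 and vehicle 3 in 21 of the 46 members tested, against 20.9% of all genes. By class this held in 9 of the 14 desmosomal genes, 7 of the 19 tight junction genes and 5 of the 13 connexins. Most of the desmosomal count came from the clustered cadherins, where it held in 7 of 8 and some probes may share signal. Dsg1a had 2.30, 2.80, 2.27 and 2.77 on vehicle 1 to 4, and the tight junction gene Cldn10 had 0.43, 1.26, 0.58 and 1.00. Gjb2 ran the other way, at 3.32, 3.03, 3.89 and 2.68. The summed basal keratinocyte markers, at 9.33, 8.999, 9.11 and 9.53, and the suprabasal ones, at 9.78, 9.28, 9.40 and 10.2, had vehicle 4 highest but vehicle 2 lowest, so they did not follow this order. The summed fibroblast markers had the same order as the keratinocyte ones, at 9.65, 9.35, 9.43 and 9.95, while the sebaceous ones, at 5.95, 6.09, 5.98 and 6.13, had vehicle 2 and 4 highest. The 75th percentile intensity was 1540 on vehicle 2 and 3, against 892 and 884 on vehicle 1 and 4. The part of array scale in these sums was not tested, so they do not measure the amount of a cell type. No test was made of the order in the junction genes.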
